A study of Bos taurus with 6 samples.

Results

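The genes described here make fatty acids and build them into triglyceride: the enzymes that supply carbon, elongate and desaturate the acyl chain and attach it to glycerol, with seipin and a pair of transcriptional regulators. Each of the 39 members was taken by its gene symbol, and all 39 were among the 23475 genes of the expression table. Bovine preadipocytes, the precursors of fat cells, had been isolated from subcutaneous fat of 3 premature calves and grown in DMEM with fetal bovine serum. They were transfected with bta-miR-484 agomir or with agomir NC, and RNA was collected 48 h later from 3 samples per group. An agomir is a stabilised synthetic duplex that supplies a miRNA to cells, and the NC is its negative control. The sources used here do not state whether replicate samples derive from different animals, so p-values measure only the spread between these samples, which may be technical.

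In fatty acid synthesis, cytosolic acetyl-CoA is carboxylated to malonyl-CoA, fatty acid synthase joins these units into palmitate, and enzymes of the endoplasmic reticulum lengthen the chain and introduce double bonds. Acyltransferases then esterify the products to glycerol-3-phosphate, lipins remove the phosphate, and diacylglycerol acyltransferases form triglyceride, which is stored in lipid droplets. In cattle, much of this synthesis takes place in adipose tissue, and it increases as preadipocytes become adipocytes.

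Expression was measured as FPKM, fragments of a transcript scaled to its length and to all mapped fragments of the library. Total FPKM still differed between libraries, from 365977 in agomir NC replicate 2 to 379361 in agomir NC replicate 3. FPKM gives no read numbers, so the depth behind each value is unknown. The level of bta-miR-484 itself was not analysed here. In bulk RNA, fewer cells of a type and less RNA per cell cannot be told apart. The labels call the cells adipocytes. Stromal markers were abundant, with *PDGFRA* between 162 and 172 FPKM and *COL3A1* between 7428 and 7916 FPKM, although *CD34* did not exceed 0.783 FPKM and *DLK1* was listed at 0 in all 6 libraries. Of the markers of mature adipocytes, *ADIPOQ* did not exceed 0.197 FPKM, *CIDEC* 0.230 FPKM and *LEP* 0.0368 FPKM, while *CD36* reached 6.502 FPKM, *LPL* 4.33 FPKM, *PPARG* 3.99 FPKM and *FABP4* 3.57 FPKM. The name preadipocytes follows the study's isolation step, while its sequencing methods call the transfected cells adipocytes and do not mention induced differentiation.

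Of the 39 members, 33 reached 0.5 FPKM on average across all libraries and were tested, and 6 lay below that level. By their mean over the 6 libraries, 13 tested members lay between 0.5 and 10 FPKM, 14 between 10 and 50 FPKM and 6 above 50 FPKM. The median level of the tested members was 14.5 FPKM, against 8.36 FPKM for all 12422 genes tested. The most abundant member was the elongase *ELOVL5*, whose mean of 154 FPKM exceeded that of 97.4% of the genes tested. It was followed by the desaturases *FADS2* at 109 FPKM and *SCD* at 92.8 FPKM, then by *ELOVL1* at 79.9 FPKM, *FADS3* at 63.8 FPKM and the dehydratase *HACD2* at 62.9 FPKM. The abundant members thus belonged to elongation and desaturation, while the genes for glycerol esterification lay at 25.4 FPKM or below. *FADS3* and *HACD2*, neighbours in this order, had overlapping values over the 6 libraries, as did *FADS2* and *SCD* (lowest of *FADS2* 97.3 FPKM, highest of *SCD* 104.3 FPKM), and those of *SCD* and *ELOVL1* were separated only narrowly, with 86.4 FPKM as the lowest of *SCD* and 86.1 FPKM as the highest of *ELOVL1*.

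**Figure D1:**
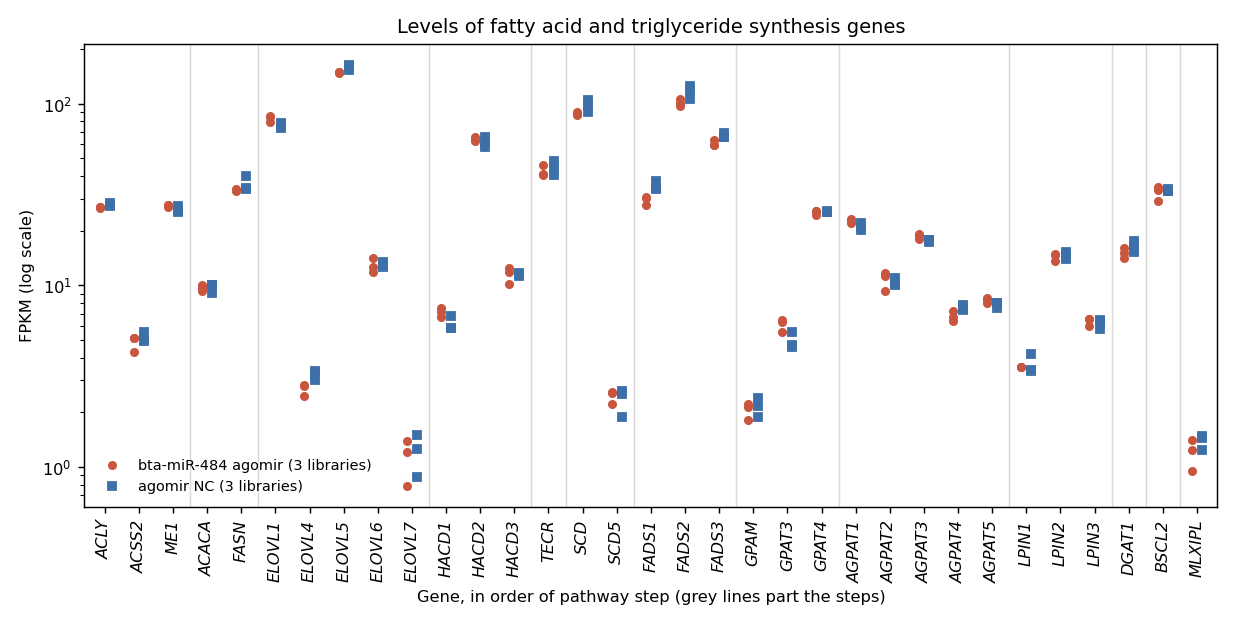
FPKM (log scale) of the 33 tested members in each of 3 agomir libraries (circles) and 3 agomir NC libraries (squares), with the genes in order of pathway step and grey lines between steps. Levels reach from about 1 FPKM for *ELOVL7* and *MLXIPL* to 154 FPKM for *ELOVL5*, and the 2 groups lie close together at every gene.

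No member passed the threshold for all genes. In limma on log2(FPKM + 0.5) with Benjamini-Hochberg adjustment over the 12422 genes, 0 of 33 members had an adjusted p under 0.05, where 1 of all genes (0.00805%) did, and the adjusted p of members ranged from 0.247 to 0.995. At an unadjusted p under 0.05, 9 of 33 members differed (27.3%), against 10.9% of all genes. Of these, 3 were higher with the agomir (9.09%, against 6.63% of all genes) and 6 were lower (18.2%, against 4.31%). The 3 agomir libraries all lay above the 3 NC libraries for 2 members (6.06%, against 10.9% of all genes) and all below them for 7 members (21.2%, against 6.36%). The log2 fold change, agomir over NC, was below 0 for 22 of the 33 (66.7%, against 44.9% of all genes), and its median was -0.04 over the members and 0.01 over all genes. These counts describe a list of related genes in the same 6 libraries, and no test was made over the list.

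The differences were small for every member tested. The largest log2 fold change in size was 0.27, and all 33 of the 95% intervals lay within a 1.5-fold difference in either direction. That number was 31 when 0.1 was added to FPKM in place of 0.5, the intervals of *ELOVL7* and *MLXIPL* reaching further, and 31 to 33 with a library left out. Summed over the 39 members, expression was 938, 923 and 939.7 FPKM in the agomir libraries and 952, 986 and 983 FPKM in the NC libraries. The groups did not overlap in this sum, which averaged 934 ± 9.08 FPKM after the agomir, against 974 ± 18.8 FPKM after the NC (SD, n = 3 each). It made up 0.251% to 0.256% of each agomir library's total FPKM and 0.258% to 0.269% of each NC library's. Abundant members weigh most in such a sum. On average, the 3 FADS genes together were at 192 against 219 FPKM, *ELOVL5* at 149 against 159.6 FPKM and *SCD* at 88.3 against 97.3 FPKM. *ELOVL1* and *HACD2* lay the other way, at 83.2 against 76.6 FPKM and 64.5 against 61.4 FPKM. Replicates were close: the median coefficient of variation of the tested members was 5.04% in the agomir group and 5.89% in the NC group, against 6.44% and 7.06% for all genes tested. The members also had a higher median level than all genes tested, and variation was not compared at matched levels.

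The counts at an unadjusted p changed with a library left out, where 1 group holds only 2 libraries and a difference of the same size can give a larger p. For *ELOVL5* the log2 fold change was -0.098 both with all libraries and without agomir replicate 3. Its unadjusted p in limma was 0.034 in the first fit and 0.085 in the second. Agomir NC replicate 2 held the highest value for 9 of the 33 members (14.4% of all genes), and agomir replicate 2 the lowest for 10 (14.7% of all genes) and the highest for 8 (24.0% of all genes). Without NC replicate 2, 3 members were lower and 0 higher at an unadjusted p under 0.05 in limma, against 4.29% of all genes lower and 5.28% higher. Without agomir replicate 2, 2 members were lower and 0 higher (3.62% and 4.47% of all genes), and without agomir replicate 3, 4 were lower and 1 was higher (3.62% and 5.24% of all genes). *FADS1* and *FADS3* were among the lower members in each of these fits.

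**Figure D2:**
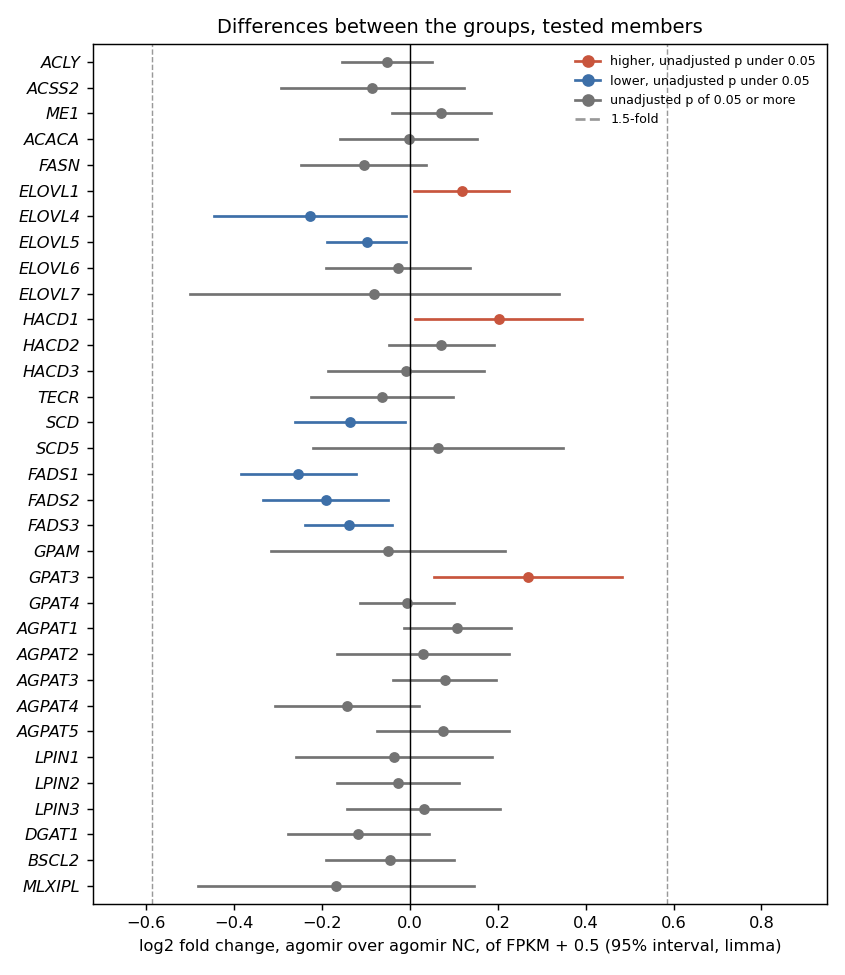
Log2 fold change, agomir over agomir NC, on the log2(FPKM + 0.5) scale for each of the 33 tested members, with 95% intervals from limma; colours mark the direction of members with an unadjusted p under 0.05 and dashed lines mark a 1.5-fold difference. No interval crosses the dashed lines, and 3 members are coloured as higher and 6 as lower.

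Among the genes that supply carbon and reducing power, *ACLY* encodes ATP-citrate lyase, which splits citrate into acetyl-CoA and oxaloacetate. It was at 26.9, 27.2 and 26.7 FPKM after the agomir, against 27.5, 27.8 and 28.4 FPKM after the NC. Every agomir value was below every NC value, but the means, 26.9 ± 0.248 and 27.9 ± 0.429 FPKM (SD, n = 3 each), gave a log2 fold change of only -0.05 (95% interval -0.15 to 0.05). *ME1*, the malic enzyme that yields NADPH, averaged 26.9 FPKM over the 6 libraries and *ACSS2*, which activates acetate, the main carbon source for this pathway in ruminants, averaged 5.03 FPKM. Both had overlapping groups.

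Acetyl-CoA carboxylase, whose product malonyl-CoA feeds the synthase, was represented by its cytosolic form. *ACACA* was at 9.30, 9.71 and 10.1 FPKM after the agomir, against 10.1, 9.99 and 9.03 FPKM after the NC. The groups lay over each other, and the log2 fold change was -0.0017 (95% interval -0.16 to 0.15). *ACACB*, the form located at mitochondria, was listed at 0.00456, 0.00704 and 0.0136 FPKM after the agomir, against 0 in the 3 NC libraries. With 3 libraries a group, the exact permutation test (two-sided) has p = 0.1 as its smallest value, which it gave for *ACACB*, at levels far below the limit for testing.

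Fatty acid synthase was lower on average with the agomir, most of the difference lying in NC replicate 2. *FASN* was at 33.8, 33.1 and 33.6 FPKM after the agomir, against 34.5, 39.9 and 34.1 FPKM after the NC. The groups did not overlap, but NC replicates 1 and 3 lay just above the agomir values, and NC replicate 2 stood apart. Mean expression was 33.5 ± 0.384 against 36.1 ± 3.25 FPKM (SD, n = 3 each), with a log2 fold change of -0.10 (95% interval -0.25 to 0.04) that was -0.03 without NC replicate 2.

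Of the 5 elongases tested, 3 had an unadjusted p under 0.05 in limma, 2 lower and 1 higher with the agomir (4.31% and 6.63% of all genes). None of the 3 kept it with the replicate block, without agomir replicate 2, without agomir replicate 3 or without NC replicate 2, and only *ELOVL4* kept it without the variance trend. *ELOVL5*, which lengthens polyunsaturated acyl chains, was at 150.4, 148 and 149 FPKM after the agomir, against 154, 162 and 164 FPKM after the NC. All 3 agomir values were lower, with means of 149 ± 1.36 and 159.6 ± 5.25 FPKM (SD, n = 3 each) and a log2 fold change of -0.10 (standard error, SE, 0.0397; limma with Benjamini-Hochberg adjustment, adjusted p = 0.415). *ELOVL1*, which acts on saturated and monounsaturated very long chains, lay the other way, at 79.3, 86.1 and 84.2 FPKM after the agomir, against 77.4, 73.4 and 78.9 FPKM after the NC. Its groups did not overlap either, the agomir group being higher, with means of 83.2 ± 3.50 and 76.6 ± 2.85 FPKM (SD, n = 3 each) and a log2 fold change of 0.12 (SE 0.0481; limma with Benjamini-Hochberg adjustment, adjusted p = 0.413).

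Summed over the elongases, expression was 249 ± 1.72 FPKM after the agomir, against 254 ± 6.12 FPKM after the NC (SD, n = 3 each). *ELOVL5* held 59.9 ± 0.955% of that sum with the agomir and 62.9 ± 1.12% with the NC, and *ELOVL1* 33.4 ± 1.18% and 30.2 ± 1.05% (SD, n = 3 each).

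The remaining elongases were minor parts of the sum. *ELOVL4*, which builds very long chains in retina, skin and brain, was at 2.45, 2.78 and 2.82 FPKM after the agomir, against 3.37, 3.29 and 3.002 FPKM after the NC. All agomir values were below all NC values, with means of 2.68 ± 0.202 and 3.22 ± 0.192 FPKM (SD, n = 3 each) and a log2 fold change of -0.23 (95% interval -0.44 to -0.0082; limma with Benjamini-Hochberg adjustment, adjusted p = 0.442). *ELOVL6*, which extends palmitate to stearate, was at 14.2, 12.6 and 11.8 FPKM after the agomir, against 12.7, 13.03 and 13.5 FPKM after the NC. Its NC values fell within the range of its agomir values, and the log2 fold change was -0.03 (95% interval -0.19 to 0.14). *ELOVL7* averaged 1.17 FPKM, *ELOVL2* was listed at 0.0525 FPKM in agomir replicate 3 and at 0 in the other libraries, and *ELOVL3* was listed at 0 in all 6.

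Each elongation cycle also needs a dehydratase and a final reductase. *HACD1*, one of the dehydratases, was at 6.74, 7.55 and 7.097 FPKM after the agomir, against 5.83, 5.80 and 6.79 FPKM after the NC. NC replicate 3 lay among the agomir libraries while the other NC libraries were lower. Mean expression was 7.13 ± 0.408 against 6.14 ± 0.565 FPKM (SD, n = 3 each), with a log2 fold change of 0.20 (SE 0.0848; limma with Benjamini-Hochberg adjustment, adjusted p = 0.431). The unadjusted p was not under 0.05 without agomir replicate 2, agomir replicate 3, NC replicate 1 or NC replicate 2. *HACD2*, which held between 76.7% and 79.1% of the summed dehydratase expression in every library, was at 62.6, 66.01 and 64.8 FPKM after the agomir, against 65.5, 57.7 and 60.9 FPKM after the NC. The groups overlapped, with a log2 fold change of 0.07 (95% interval -0.05 to 0.19) that was 0.03 without NC replicate 2 and 0.12, at an unadjusted p under 0.05 in limma, without NC replicate 1. The reductase *TECR* was at 45.8, 41.2 and 40.7 FPKM after the agomir, against 44.5, 40.5 and 48.5 FPKM after the NC. These groups overlapped too, with a log2 fold change of -0.06 (95% interval -0.22 to 0.10), and *HACD3* averaged 11.5 FPKM.

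Desaturation held the members with the smallest p-values, and all 3 genes of the FADS family were lower with the agomir at an unadjusted p under 0.05 in limma (4.31% of all genes). Without agomir replicate 2, *FADS2* was no longer under that level. *FADS1*, the delta-5 desaturase of polyunsaturated fatty acid synthesis, was at 30.1, 27.8 and 30.8 FPKM after the agomir, against 34.2, 37.5 and 34.4 FPKM after the NC. All 3 agomir values were below all 3 NC values. Mean expression was 29.6 ± 1.57 against 35.4 ± 1.84 FPKM (SD, n = 3 each), a difference of -16.3%. The log2 fold change of -0.25 (SE 0.0583, 95% interval -0.38 to -0.12) had an adjusted p of 0.247 in limma with Benjamini-Hochberg adjustment, the lowest of the members and above the threshold.

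*FADS2*, the delta-6 desaturase that begins the same pathway, was at 106.4, 97.3 and 101 FPKM after the agomir, against 106.1, 126 and 117 FPKM after the NC. The groups touched, since agomir replicate 1 and NC replicate 1 had nearly the same value, and the other NC libraries were above every agomir library. Mean expression was 102 ± 4.60 against 116 ± 9.82 FPKM (SD, n = 3 each), a difference of -12.6%. On the log2 scale the difference was -0.19 (SE 0.0630, 95% interval -0.33 to -0.05; limma with Benjamini-Hochberg adjustment, adjusted p = 0.350).

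*FADS3*, the third gene of the family, was at 59.63, 59.63 and 62.9 FPKM after the agomir, against 69.03, 65.95 and 65.7 FPKM after the NC. The groups did not overlap, and here NC replicate 1, the lowest NC library for *FADS2*, was the highest. Mean expression was 60.7 ± 1.90 against 66.9 ± 1.85 FPKM (SD, n = 3 each), a difference of -9.21%. On the log2 scale the difference was -0.14 (SE 0.0443, 95% interval -0.24 to -0.04; limma with Benjamini-Hochberg adjustment, adjusted p = 0.344).

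The summed expression of the 3 FADS genes was 196, 185 and 195 FPKM after the agomir, against 209, 229 and 217 FPKM after the NC, a mean of 192 ± 6.29 against 219 ± 9.97 FPKM (SD, n = 3 each). Within that sum *FADS1* held 15.3%, 15.1% and 15.8% with the agomir and 16.3%, 16.4% and 15.9% with the NC, a narrow separation. The parts of *FADS2*, 52.9 ± 1.2% and 53.1 ± 2.18%, and of *FADS3*, 31.7 ± 1.09% and 30.7 ± 2.13% (SD, n = 3 each), overlapped between the groups.

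The FADS genes are neighbours. In the RefSeq table of ARS-UCD2.0, a later assembly than the one named for the expression values, *FADS1* and *FADS2* have overlapping spans and *FADS3* is the next gene. Reads from the shared stretch cannot be assigned to either gene without knowing the library's strand, which was not stated. The genes on either side, *FEN1* and *RAB3IL1*, were looked up after the values were seen. *FEN1*, a nuclease of DNA replication, was at 3.96, 2.57 and 4.67 FPKM after the agomir, against 3.69, 4.398 and 5.08 FPKM after the NC. *RAB3IL1*, which encodes an exchange factor for Rab proteins, was at 19.4, 19.01 and 19.9 FPKM after the agomir, against 17.8, 21.3 and 20.5 FPKM after the NC. For both flanking genes the groups overlapped, with log2 fold changes of -0.23 (95% interval -0.64 to 0.18) for *FEN1* and -0.03 (95% interval -0.18 to 0.13) for *RAB3IL1*.

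Stearoyl-CoA desaturase, which introduces the first double bond into saturated chains, was also lower on average. *SCD* was at 88.2, 86.4 and 90.4 FPKM after the agomir, against 89.9, 104.3 and 97.6 FPKM after the NC. NC replicate 1 lay within the agomir range, and NC replicates 2 and 3 lay above it. Mean expression was 88.3 ± 2.03 against 97.3 ± 7.24 FPKM (SD, n = 3 each), with a log2 fold change of -0.14 (SE 0.0557; limma with Benjamini-Hochberg adjustment, adjusted p = 0.422) that was -0.08 without NC replicate 2. The unadjusted p was under 0.05 with all 6 libraries, but not without the variance trend or in the fits that left out agomir replicate 1 or 2 or NC replicate 2 or 3. *SCD* held between 97.1% and 98.2% of the summed expression of the delta-9 desaturases, and *SCD5* averaged only 2.40 FPKM.

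**Figure D3:**
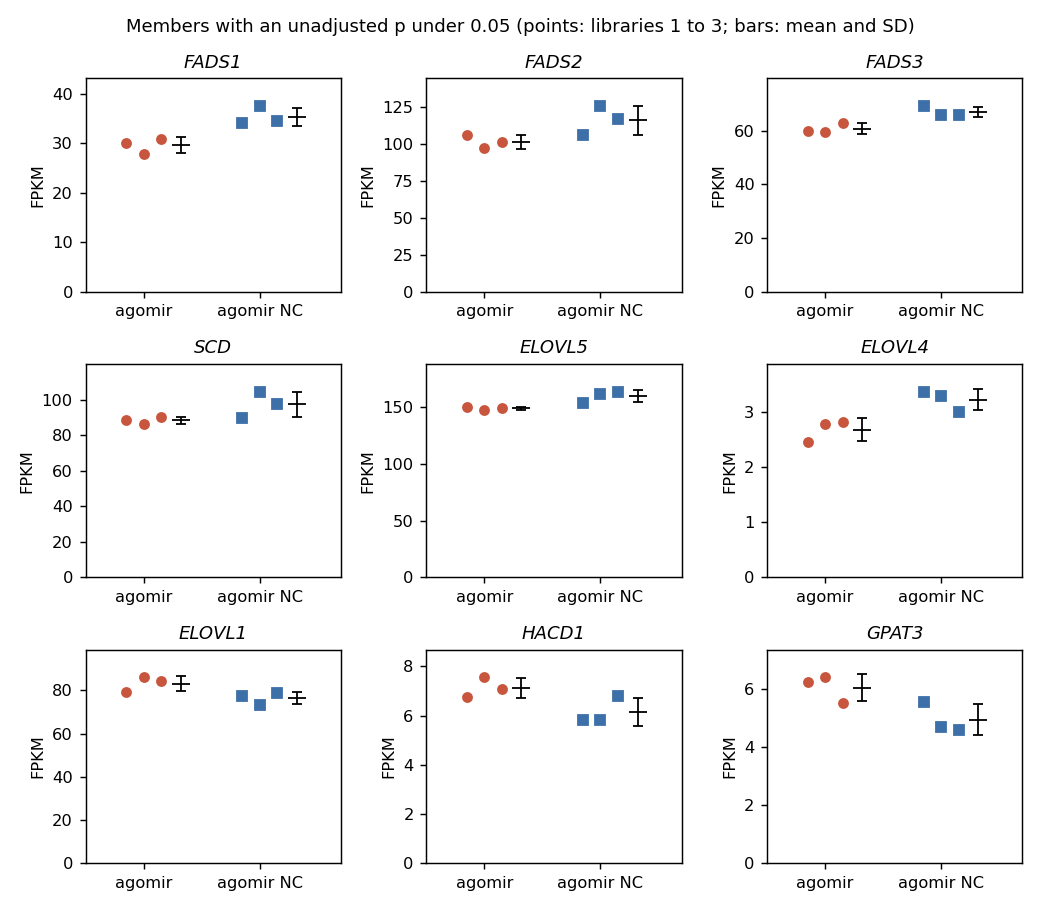
FPKM of the 9 members with an unadjusted p under 0.05, with 1 point for each of 3 agomir (circles) and 3 agomir NC libraries (squares), in the order of replicate number, and bars for the mean and SD. Every agomir point lies below every NC point for *FADS1*, *FADS3*, *ELOVL5* and *ELOVL4* and above for *ELOVL1*, and the groups overlap for *FADS2*, *SCD*, *HACD1* and *GPAT3*.

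In the esterification of glycerol-3-phosphate, 1 isoenzyme lay higher with the agomir at an unadjusted p under 0.05 in limma (6.63% of all genes), though not in the fits that left out agomir replicate 1 or 2 or NC replicate 2 or 3. *GPAT3*, a glycerol-3-phosphate acyltransferase of the endoplasmic reticulum, was at 6.26, 6.41 and 5.52 FPKM after the agomir, against 5.56, 4.70 and 4.60 FPKM after the NC. The groups overlapped narrowly, with agomir replicate 3 just below NC replicate 1. Mean expression was 6.06 ± 0.479 against 4.95 ± 0.525 FPKM (SD, n = 3 each). On the log2 scale the difference was 0.27 (SE 0.0954, 95% interval 0.05 to 0.48; limma with Benjamini-Hochberg adjustment, adjusted p = 0.374).

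*GPAT4* was the main isoenzyme of this step, with an average of 25.4 FPKM and between 75.0% and 79.6% of the step's summed expression. *GPAT3* held 18.1 ± 0.889% of that sum with the agomir and 15.2 ± 1.22% with the NC (SD, n = 3 each). *GPAM*, the mitochondrial enzyme that is prominent in mature adipocytes, was at 1.81, 2.15 and 2.24 FPKM after the agomir, against 2.18, 2.39 and 1.898 FPKM after the NC. The groups overlapped, with a log2 fold change of -0.05 (95% interval -0.31 to 0.22). *GPAT2*, best known from testis, was listed at 0 in all 6 libraries.

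The next acyl chain is added by the AGPAT enzymes. With all 6 libraries, none of the 5 had an unadjusted p under 0.05 in limma (10.9% of all genes, both directions together). *AGPAT4* did without agomir replicate 1 (9.82% of all genes) and *AGPAT1* without NC replicate 3 (9.01% of all genes). *AGPAT3* was at 18.1, 18.8 and 19.3 FPKM after the agomir, against 17.8, 17.4 and 17.7 FPKM after the NC. The agomir libraries were all higher, with a log2 fold change of 0.08 (95% interval -0.04 to 0.20). *AGPAT4* was at 7.22, 6.71 and 6.40 FPKM after the agomir, against 7.29, 7.76 and 7.54 FPKM after the NC. Here the agomir libraries were all lower, with a log2 fold change of -0.14 (95% interval -0.31 to 0.02). *AGPAT1*, *AGPAT2* and *AGPAT5* averaged 21.9, 10.6 and 8.06 FPKM, and their groups overlapped.

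Lipins turn phosphatidate into diacylglycerol. *LPIN1*, the form most studied in adipocytes, was at 3.57, 3.54 and 3.56 FPKM after the agomir, against 3.43, 4.21 and 3.39 FPKM after the NC. NC replicate 2 was above every other library, NC replicates 1 and 3 were below every agomir library, and the log2 fold change was -0.04 (95% interval -0.26 to 0.19). *LPIN2* was the most abundant lipin, at an average of 14.5 FPKM and between 58.6% and 60.4% of the lipin sum, and *LPIN3* averaged 6.28 FPKM.

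The acylation that completes triglyceride was represented almost wholly by *DGAT1*. This gene was at 15.1, 14.1 and 16.0 FPKM after the agomir, against 15.2, 16.4 and 17.6 FPKM after the NC. The ranges overlapped, with means of 15.1 ± 0.921 and 16.4 ± 1.19 FPKM (SD, n = 3 each) and a log2 fold change of -0.12 (95% interval -0.28 to 0.04) that was -0.07 without agomir replicate 2 or without NC replicate 3. *DGAT2*, an unrelated enzyme of the same reaction, was listed at 0.195, 0.0723 and 0.0419 FPKM after the agomir, against 0.0942, 0.0623 and 0.0612 FPKM after the NC. It lay below the limit for testing in every library, with overlapping groups (exact two-sided permutation p = 0.8), and *DGAT1* held at least 98.7% of the sum of the pair in each library.

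*BSCL2*, which encodes seipin, a protein needed for normal lipid droplet formation, averaged 33.0 FPKM, with overlapping groups. Of the regulators, *MLXIPL* encodes ChREBP, which induces lipogenic genes in response to glucose. It was at 1.24, 0.948 and 1.40 FPKM after the agomir, against 1.49, 1.45 and 1.24 FPKM after the NC. The groups overlapped, agomir replicate 2 being the lowest library, and the log2 fold change was -0.17 with a wide 95% interval of -0.48 to 0.15. It was -0.06 without agomir replicate 2 and -0.25 without agomir replicate 3. *THRSP*, the thyroid hormone responsive gene linked to lipogenesis, was listed at 0 in all 6 libraries.

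Other members also share part of their span with another gene in ARS-UCD2.0. *DGAT1* overlaps *HSF1*, *BSCL2* overlaps *GNG3*, *AGPAT1* overlaps *EGFL8* and *ELOVL1* overlaps *LOC100335822*, which were looked up after the values were seen. *HSF1* averaged 29.6 ± 1.40 FPKM after the agomir, against 30.4 ± 1.88 FPKM after the NC (SD, n = 3 each), and the other overlapping genes were at most 1.48 FPKM in any library. *ACACA*, *FASN*, *ELOVL7*, *HACD3*, *FADS1*, *GPAM* and *LPIN1* also overlap other loci, whose values were not used here.

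A further list of the pathway held 37 genes, all of them in the expression table, and 33 were tested, with *HACD4*, *OLAH*, *MOGAT1* and *MOGAT2* below the limit. In limma with Benjamini-Hochberg adjustment, 0 of the 33 had an adjusted p under 0.05. At an unadjusted p under 0.05, 0 were higher (6.63% of all genes) and 1 was lower (3.03%, against 4.31% of all genes). Both directions together held 3 genes without NC replicate 1 (11.5% of all genes) and 4 without NC replicate 3 (9.01% of all genes). The groups did not overlap for 1 gene in each direction (3.03%, against 10.9% of all genes higher and 6.36% lower), and the log2 fold changes ranged from -0.21 to 0.22, with 22 of 33 below 0 (66.7%, against 44.9% of all genes).

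The lower gene was *PLPP1*, a membrane phosphatase that acts on lipid phosphates. It was at 18.1, 19.1 and 17.9 FPKM after the agomir, against 19.6, 22.7 and 21.96 FPKM after the NC. All 3 agomir libraries were lower, with means of 18.4 ± 0.672 and 21.4 ± 1.61 FPKM (SD, n = 3 each) and a log2 fold change of -0.21 (SE 0.0654; limma with Benjamini-Hochberg adjustment, adjusted p = 0.327). The unadjusted p of *PLPP1* was under 0.05 in all 13 other settings as well. *FITM1*, which promotes fat storage in droplets, was at 1.61, 1.60 and 1.71 FPKM after the agomir, against 1.48, 1.22 and 1.33 FPKM after the NC. All its agomir values were higher, with a log2 fold change of 0.22 (95% interval -0.04 to 0.47) and an unadjusted p under 0.05 only without the variance trend.

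Among the regulators of these genes, *SREBF1* encodes SREBP-1, which activates genes of fatty acid synthesis and desaturation, and it was at 47.2, 43.2 and 42.1 FPKM after the agomir, against 42.4, 48.2 and 43.02 FPKM after the NC. The groups overlapped, with a log2 fold change of -0.01 (95% interval -0.15 to 0.13). The ratio of *FADS1* to *SREBF1* within a library was picked from several ratios after the values were seen. It was 0.638, 0.645 and 0.732 with the agomir and 0.806, 0.778 and 0.801 with the NC, without overlap. Since *SREBF1* differed little, this ratio mostly repeated the separation of *FADS1* itself. *NR1H3*, which encodes the sterol sensor LXR alpha, was at 6.05, 6.86 and 5.91 FPKM after the agomir, against 6.75, 7.45 and 5.81 FPKM after the NC. Its groups overlapped, with a log2 fold change of -0.08 (95% interval -0.30 to 0.15) that was -0.00013 without NC replicate 2 and -0.17 without NC replicate 3. *HSD17B12*, the ketoacyl reductase of the elongation cycle, was at 44.9, 45.7 and 43.8 FPKM after the agomir, against 45.5, 45.3 and 47.1 FPKM after the NC. These groups overlapped as well, with a log2 fold change of -0.04 (95% interval -0.14 to 0.06) that was -0.02 without agomir replicate 3 or without NC replicate 3.

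Cell type markers were read in the same libraries. Of the 12 stromal markers, 10 were tested, and *NT5E* and *DCN* were lower with the agomir at an unadjusted p under 0.05 in limma (4.31% of all genes). *NT5E* kept this in all 13 other settings, and *DCN* lost it without the filter, without the variance trend, without agomir replicate 1 and without agomir replicate 3. *NT5E* was at 71.7, 70.6 and 77.5 FPKM after the agomir, against 83.1, 89.2 and 89.4 FPKM after the NC, and *DCN* was at 2840, 2899 and 2850 FPKM against 2991, 3102 and 3248 FPKM. The groups did not overlap for either gene (6.36% of all genes in this direction), nor for *ENG*, which was at 54.2, 53.7 and 54.0 FPKM after the agomir, against 56.3, 58.2 and 56.5 FPKM after the NC. The stromal sum, led by *COL3A1*, overlapped between the groups, at 23082, 23886 and 23035 FPKM after the agomir, against 23044, 24341 and 23977 FPKM after the NC.

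Of the 10 mature adipocyte markers, 7 were tested, of which *PPARG* was higher and *FABP4* lower with the agomir at an unadjusted p under 0.05 in limma (6.63% and 4.31% of all genes). *PPARG* lost this without agomir replicate 1, agomir replicate 3 or NC replicate 3, and *FABP4* without agomir replicate 3 or NC replicate 1. *PPARG* was at 3.99, 3.69 and 3.91 FPKM after the agomir, against 3.39, 3.34 and 2.96 FPKM after the NC, without overlap. *FABP4* was at 1.82, 2.33 and 1.54 FPKM after the agomir, against 3.57, 2.21 and 2.88 FPKM after the NC, with overlap. The sum of the list, of which *CD36* was the most abundant gene, was 16.2, 18.5 and 18.0 FPKM after the agomir, against 18.4, 16.8 and 18.2 FPKM after the NC, also with overlap.

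Markers of other cell types were low, and none tested had an unadjusted p under 0.05. Summed over each list, the 6 libraries lay between 3.77 and 4.54 FPKM for endothelial genes (mostly *VWF*), between 7.09 and 8.39 FPKM for leukocyte genes (mostly *CD14*), between 3.03 and 3.45 FPKM for mural genes (mostly *NOTCH3*) and between 3.08 and 4.89 FPKM for Schwann cell genes (mostly *S100B*). Skeletal muscle genes, mostly *DES*, summed to at most 0.460 FPKM and epithelial genes to at most 0.379 FPKM. *PTPRC*, which defines leukocytes, did not exceed 0.119 FPKM, and *MYOD1*, *MYOG*, *KRT5* and *SOX10* were listed at 0 in all 6 libraries. The sums of the groups overlapped for every one of these lists but the epithelial one, which was lower in each agomir library. The part of any of these markers in the differences of the lipid genes was not tested.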

How the data were processed

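RNA sequencing of 3 bta-miR-484 agomir and 3 agomir NC samples was analysed. The unit was FPKM as deposited, with 1 value for each gene in each library; the submitters' processing notes name fastp, HISAT2, StringTie and the build ARS-UCD1.2, with no versions. FPKM holds no counts, and ratios of low values (up to 0.5 FPKM) did not fall into steps, the fullest 0.002-wide log2 bin holding 0.644% of genes, so whole reads were not recovered. Genes that averaged 0.5 FPKM or more were taken as log2(FPKM + 0.5), a scale that understates differences of low genes, and compared with limma 3.58.1 (R 4.3.3; two-sided, variance trend, no block) with Benjamini-Hochberg adjustment over all genes tested, called at an adjusted p of 0.05. The model was tested on simulated data. Single genes below that level were compared by the exact two-sided permutation test of mean FPKM over 20 labelings. Summaries used Python 3.11.15, pandas 2.3.3 and numpy 2.4.6.

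Values per library were given for members with an unadjusted p under 0.05, with groups that did not overlap, among the 8 highest means, below the filter, or among *ACACA*, *FASN*, *SCD*, *ELOVL6*, *GPAM*, *LPIN1*, *DGAT1*, *DGAT2*, *MLXIPL* and *THRSP*, and for other pathway genes by the first pair of rules or as *SREBF1*, *NR1H3* and *HSD17B12*. The members, the further pathway genes and the marker lists (stromal, mature adipocyte, endothelial, leukocyte, mural, skeletal muscle, epithelial, Schwann cell) were chosen with earlier results of these data known. All 39 members matched a symbol of the RefSeq table of ARS-UCD2.0, used for neighbours only. The list of further pathway genes held 38 symbols, of which *LDAF1* and *TMEM159* name 1 gene, found as *TMEM159*. Of the skeletal muscle markers, *PAX7* was not found by that symbol. Promoter and miRNA sequences were not analysed here. The alternatives were pseudocounts of 0.1 and 1, a filter at a mean of 1 FPKM or none, median-ratio scaling, no variance trend, the replicate number as a block, and each library left out in turn.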

Additional observations from a re-analysis of the deposited data

How the results depend on the processing

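In 13 other settings, 0 members had an adjusted p under 0.05 in limma with Benjamini-Hochberg adjustment. The lowest was 0.232 over the 21 tested members and 5 further pathway genes given with values per library, markers not included. Of 338 fold changes of these genes, 327 kept their direction and their side of the threshold and 11 reversed, all with a library left out. In these 6 fits, the log2 fold change ranged from -0.051 to 0.027 for *ACACA*, -0.096 to 0.029 for *ELOVL6*, -0.12 to 0.024 for *GPAM*, -0.085 to 0.054 for *LPIN1*, -0.059 to 0.047 for *SREBF1* and -0.13 to 0.00024 for *TECR*. *FADS1* (-0.28 to -0.21 over the 13 settings) and *FADS3* (-0.16 to -0.12) had an unadjusted p under 0.05 in all 13, and *FADS2* (-0.26 to -0.13) in all but 1, which left out agomir replicate 2. Outside the members, *PLPP1* and the stromal marker *NT5E* also kept it in all 13. The share of all genes that did so was not counted.

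Over all genes, the 1 gene called became 0 without the filter, 0 without the variance trend and 0 to 2 with a library left out (1604 and 1249 genes had an unadjusted p under 0.05 in the first pair of fits). With a library left out, members at an unadjusted p under 0.05 numbered 0 to 3 higher and 2 to 5 lower (4.47% to 6.68% and 3.08% to 4.797% of all genes). In the same fits, members with separate groups numbered 10 to 15 (from 9, with fewer libraries to overlap), against 25.6% to 29.3% of all genes (from 17.2%). Further pathway genes at an unadjusted p under 0.05 numbered 1 to 4 in these fits, against 8.09% to 11.5% of all genes. Their count was 3 without agomir NC replicate 1 and 4 without agomir NC replicate 3. It was 2 with median-ratio scaling and 2 without the variance trend (11.0% and 10.1% of all genes). Median-ratio scaling put the members' median log2 fold change at -0.052 (from -0.036) and that of all genes at -0.0032. It also turned the split of genes at an unadjusted p under 0.05 to 5.81% lower and 5.16% higher, from 4.31% and 6.63%, with 6 members lower and 3 higher in both. The causes were not tested.

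With the replicate block, 0 genes were called over all genes (1260 at an unadjusted p under 0.05). At an unadjusted p under 0.05, 4 members were lower and 2 higher (4.20% and 5.94% of all genes). Deviations of samples sharing a number had correlations of -0.051, 0.053 and 0.039 across genes, so the numbers were not taken as pairs. Of the 6 samples, 2 correlated best with the sample of their own number, agomir replicate 3 and agomir NC replicate 2. FPKM gives no depth, so counting error cannot be given.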
